A study of Mus musculus with 70 samples.

Results

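Potassium channel genes were examined as a family across the brain of mice that lack either isoform of Capicua (Cic), with lung as a contrast. The members were the protein-coding genes of the mouse annotation whose symbol starts with Kcn, and 85 of them were found among the 50789 gene identifiers of the count table, which holds 20780 protein-coding genes. By class they comprised 37 voltage-gated pore-forming subunits, 11 voltage-gated auxiliary subunits, 12 inward rectifiers, 13 tandem-pore (K2P) channels, 11 calcium-activated or sodium-activated channel genes and Kcnrg, a regulator in no class. Sequencing covered 70 samples in 9 groups, with 8 samples per group except for the Cic-S-KO brain regions, which had 7 each. Cic-S-KO mice lack the short isoform and Cic-L-KO mice the long isoform, and WT samples were littermates of both lines pooled into a single control group. Cortex and cerebellum came from 12-week-old animals and lung from pups at postnatal day 6 (P6). The labels do not say which WT animals belong to which line, or how either deletion was made. In bulk tissue such as this, fewer cells of a type and less RNA per cell cannot be told apart.

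Potassium channels let potassium leave the cell, or enter it in the case of inward rectification, and so set the resting potential, the width of the action potential and the rate of firing. Voltage-gated subunits open on depolarisation and are tuned by auxiliary subunits and by electrically silent subunits that join them, inward rectifiers and K2P channels carry current near rest, and calcium-activated channels follow intracellular calcium. Capicua is a transcriptional repressor that binds short TGAATGAA-like octamers, and its isoforms differ in their amino-terminal end.

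Depth and identity of the libraries were checked over the whole table. Total counts ran from 20730808 to 32548951 in cortex, from 20440799 to 30464699 in cerebellum and from 17798655 to 35523037 in lung, and the labels put lung in batch 1 and both brain regions in batch 2. Cic itself, counted over both isoforms and so unable to show the loss of either, was at 161.6 ± 8.62 CPM (depth-normalised counts, mean ± SD, n = 8) in WT cortex, 250.6 ± 7.64 (n = 7) in Cic-S-KO cortex and 297.7 ± 17 (n = 8) in Cic-L-KO cortex. In cerebellum the corresponding Cic levels were 191.7 ± 14.5, 213.3 ± 14.6 and 212.5 ± 13.2 CPM. Markers of the labelled tissues were present, and no list of brain cell markers held a gene at 0 in every sample. Of the cortex libraries, 2 of 8 WT, 2 of 7 Cic-S-KO and 5 of 8 Cic-L-KO libraries had over 100 CPM of Ttr, which is made by the choroid plexus epithelium. These 9 libraries were left out in an alternative chosen after seeing the data, whose values stand beside the cortex counts. In lung, Cic-S-KO replicate 5 stood apart with 8.25 CPM of the neuronal transporter gene Slc17a7, against at most 0.58 CPM in the other lung libraries.

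Promoters were searched for the Cic octamer because it is the sequence that Capicua is known to bind. The motifs were TGAATGAA, TGAATGGA, TCAATGAA and TCAATGGA, read on both strands and with no overlap among them, in the RefSeq promoter windows of build GRCm38.p6, which run from 250 bases before to 50 bases after a start site. RefSeq windows were found for 61 of the 85 members, which have 82 promoters. A motif was present in 3 of the 82, or 3.66%, against 1260 of 32851 promoters of all genes, or 3.84%. The 3 windows are shown with the match in capitals, 5′ to 3′ on the gene's own strand, on which the match reads as the reverse complement of the motif. The Kcnip1 window with a match lies at chr11:33843637-33843936 on the minus strand and holds TGAATGAA at bases 252 to 259, just past the start site. The other windows of Kcnip1 held no motif. The Kcnip4 window with a match lies at chr5:49285610-49285909 on the minus strand and holds TCAATGAA at bases 172 to 179. Another window of Kcnip4 held no motif. The Kcns3 window lies at chr12:11150793-11151092 on the minus strand and holds TGAATGGA at bases 64 to 71.
Kcnip1: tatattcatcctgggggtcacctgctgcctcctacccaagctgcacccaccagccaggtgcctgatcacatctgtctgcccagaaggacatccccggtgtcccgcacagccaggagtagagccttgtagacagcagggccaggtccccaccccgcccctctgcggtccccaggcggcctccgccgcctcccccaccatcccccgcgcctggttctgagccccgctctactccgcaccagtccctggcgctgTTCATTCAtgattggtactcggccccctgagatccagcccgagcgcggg
Kcnip4: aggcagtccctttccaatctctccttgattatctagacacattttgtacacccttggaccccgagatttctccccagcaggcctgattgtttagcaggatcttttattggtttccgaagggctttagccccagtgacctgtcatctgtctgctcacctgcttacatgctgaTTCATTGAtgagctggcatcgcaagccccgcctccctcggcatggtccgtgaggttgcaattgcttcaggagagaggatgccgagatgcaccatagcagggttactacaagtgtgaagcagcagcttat
Kcns3: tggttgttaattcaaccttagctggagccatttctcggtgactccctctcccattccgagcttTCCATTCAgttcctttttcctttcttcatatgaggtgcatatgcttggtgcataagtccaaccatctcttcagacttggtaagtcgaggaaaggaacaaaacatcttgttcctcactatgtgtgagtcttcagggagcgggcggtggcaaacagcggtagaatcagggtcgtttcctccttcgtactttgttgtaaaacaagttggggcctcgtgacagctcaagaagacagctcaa

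These 3 genes did not share a direction. In Cic-L-KO cortex Kcnip1 and Kcns3 rose and Kcnip4 fell, with log2 fold changes against WT of 0.56, 0.62 and -0.21 (edgeR's quasi-likelihood test, Benjamini-Hochberg adjusted p = 1.14e-09, 1.17e-06 and 0.0023). In Cic-S-KO cortex none of the 3 passed the test, with log2 fold changes of -0.08, -0.15 and 0.05 for Kcnip1, Kcns3 and Kcnip4 (edgeR adjusted p = 0.398, 0.35 and 0.603). A match is a string of letters in these windows and was not tested as a binding site. Which start site of a gene is used in these tissues was not tested either. Kcnip4 shares exons with antisense or overlapping genes over 7.36% of its exonic length.

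WT levels were compared between genes per length, as TPM, a depth- and length-scaled level computed from union exon length. In WT cortex the leading members were Kcnab2, a beta subunit of Kv1 channels, at 349.7 ± 11.6 TPM (SD, n = 8), and Kcnj4, an inward rectifier, at 236.7 ± 15.8 TPM. Kcnk1 at 161.7 ± 12.7, the silent subunit gene Kcnf1 at 158.5 ± 13.0 and Kcnip3 at 149.4 ± 9.71 TPM followed within the spread of their neighbours. In WT cerebellum Kcnk1 was at 402.7 ± 30.8 TPM. Kcnc1 at 288.0 ± 32.8 and Kcnd2 at 261.0 ± 25.3 TPM came after it and did not differ beyond their spread. In WT lung the highest were Kcne2 at 91.5 ± 29.2 TPM and Kcnk3 at 73.5 ± 8.19 TPM, and their ranges overlapped. Summed over the 85 members, WT levels were 3604 ± 120 TPM in cortex, 4021 ± 148 TPM in cerebellum and 477 ± 51.0 TPM in lung. Lung differs from brain in tissue, age and batch at once, so these cannot be told apart and no test was made between them.

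**Figure D1:**
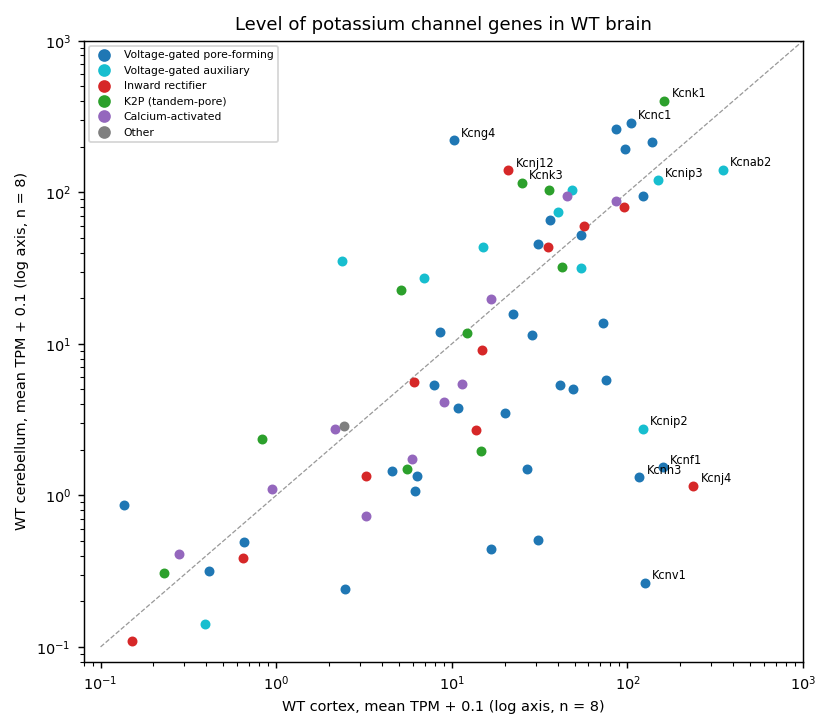
Mean WT level of 74 members tested in at least 1 tissue, in cortex (horizontal, n = 8) and cerebellum (vertical, n = 8), as TPM plus 0.1 on log axes, with 1 point per member coloured by channel class and a dashed line of equal levels. Kcnk1 is at 402.7 TPM in cerebellum and Kcnab2 at 349.7 TPM in cortex, and Kcnv1, Kcnj4, Kcnf1 and Kcnh3 lie far below the line and Kcng4 far above it.

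The regions differed in most members. Between WT cortex and WT cerebellum, 64 of the 74 members tested in both regions together passed an adjusted p of 0.05 in edgeR's quasi-likelihood test, 41 higher in cortex and 23 higher in cerebellum, against 73.5% of all 18032 genes tested (35.4% and 38.2%). Kcnv1, a silent subunit, stood at 137.6 to 172.4 CPM in WT cortex and at 0 to 0.578 CPM in WT cerebellum, so the regions did not overlap. Kcnj4, Kcnf1 and Kcnh3 were likewise cortical, with log2 differences of 7.93, 6.91 and 6.71. Kcng4, another silent subunit, was the reverse, at 202.5 to 242.3 CPM in cerebellum and 7.69 to 15.5 CPM in cortex, a log2 difference of -4.31. Kcnj12 and Kcnk3 were also higher in cerebellum, with log2 differences of -2.61 and -2.08. By class, 34 of 35 pore-forming subunits, 9 of 9 auxiliary subunits, 8 of 9 K2P channels, 8 of 10 inward rectifiers and 5 of 10 calcium-activated members differed. The remaining calcium-activated genes included Kcnma1, the large-conductance channel, at 366.5 to 415.5 CPM in WT cortex and 309.1 to 426.9 CPM in WT cerebellum.

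In Cic-L-KO cortex many potassium channel genes differed from WT, in both directions. In Cic-L-KO against WT cortex, 49 of 72 tested members (68.1%) passed an adjusted p of 0.05, 22 higher and 27 lower, against 43.2% of all 16974 genes tested (21.4% higher, 21.9% lower). Above a mean expression of 4 on the log2 CPM scale the share was 36 of 44 members (81.8%) against 55.9%. The median log2 fold change of the members was -0.06, against 0.01 over all genes, and their median absolute change was 0.28 against 0.18. The 22 and 27 calls were spread over the classes, with 23 of 34 pore-forming subunits (9 higher, 14 lower), 8 of 9 auxiliary subunits (4 and 4), 7 of 10 inward rectifiers (3 and 4), 6 of 9 K2P channels (3 and 3) and 5 of 9 calcium-activated genes (3 and 2). Of the 49, 15 moved by at least 0.5 on the log2 scale, against 1931 of the 7338 that passed among all genes. Without the 9 libraries with over 100 CPM of Ttr, which leaves 6 WT and 3 Cic-L-KO libraries, 30 of 72 members passed (15 higher, 15 lower), against 20.1% of all genes at that setting. All 30 were among the 49 and none changed sign. Apart from Kcne2 and Kcnn3, the members that no longer passed at that setting are not marked below.

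**Figure D2:**
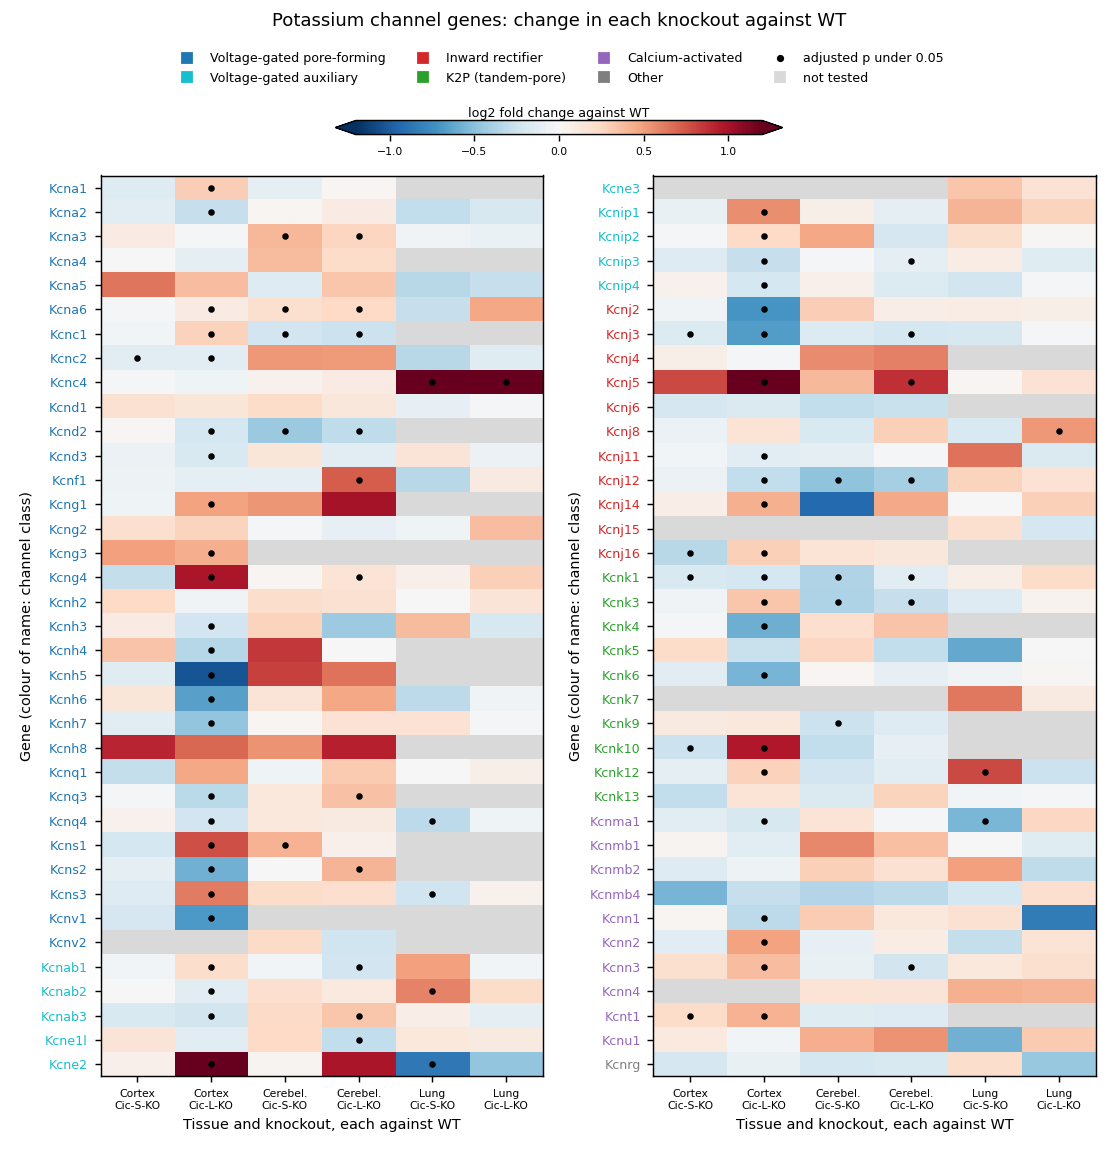
Log2 fold change against WT for 74 members tested in at least 1 tissue (rows, by channel class) in the 6 knockout contrasts (columns), with a dot where edgeR's adjusted p was under 0.05 and grey where a gene was not tested. The column of Cic-L-KO cortex holds 47 dots in both colours, and that of Cic-S-KO cortex holds 6.

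Of the 9 tested genes of electrically silent subunits (Kcnf, Kcng, Kcns and Kcnv), a group formed after the values were seen, 5 rose and 2 fell in Cic-L-KO cortex. Of all genes tested in that contrast, 21.4% rose and 21.9% fell. Kcng1 and Kcng3 rose by 0.48 and 0.43 (edgeR adjusted p = 0.00226 and 0.0404), and Kcnf1 and Kcng2 had log2 fold changes of -0.12 and 0.27 that did not pass. Kcng4 (ENSMUSG00000045246.11, GRCm38 chromosome 8, 119623854 to 119635680, minus strand) was at 7.69, 10.4 and 15.5 CPM (lowest, median, highest) in WT and at 18.1, 20.8 and 22.8 CPM in Cic-L-KO cortex. The groups did not overlap, and Kcng4 rose by 0.98 (SE 0.116, edgeR adjusted p = 1.7e-07). Kcns1, whose subunit modifies Kv2 channels, was at 26.2, 29.4 and 37.9 CPM in WT and at 47.3, 51.0 and 59.2 CPM in Cic-L-KO cortex, again with no overlap (0.77, SE 0.074, edgeR adjusted p = 2.44e-09). Kcns3, of the same subfamily and with a motif in the window printed above, went from 7.32, 9.06 and 10.9 CPM to 13.1, 14.0 and 15.7 CPM. Every Cic-L-KO sample lay above every WT sample for Kcns3 too. The silent subunits were not uniform, because Kcns2 and Kcnv1 fell. Kcns2 was at 32.9, 43.0 and 48.8 CPM in WT and at 24.7, 27.9 and 32.8 CPM in Cic-L-KO cortex (-0.58, SE 0.071, edgeR adjusted p = 1.79e-07). Kcnv1 was at 137.6, 155.4 and 172.4 CPM in WT and at 73.5, 93.4 and 113.9 CPM in Cic-L-KO cortex (-0.69, SE 0.079, edgeR adjusted p = 2.18e-07). In neither gene did the groups overlap.

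Among other pore-forming subunits, the ether-a-go-go gene Kcnh5 fell furthest. It was at 24.9, 26.6 and 38.4 CPM in WT and at 10.2, 14.5 and 17.9 CPM in Cic-L-KO cortex, with every knockout sample below every WT sample (-1.04, SE 0.103, edgeR adjusted p = 1.19e-08). Its relatives Kcnh6, Kcnh7 and Kcnh3 also fell, with log2 fold changes of -0.65, -0.48 and -0.23. Kcnc1, a Kv3 gene of fast-spiking neurons, rose. It went from 245.5, 267.6 and 279.0 CPM in WT to 310.2, 319.8 and 339.6 CPM with no overlap (0.28, SE 0.035, edgeR adjusted p = 1.75e-07). Kcnc2, a Kv3 gene as well, fell by 0.13 on the log2 scale (edgeR adjusted p = 0.0119). The Kv1 genes of axons and terminals moved apart, since Kcna1 rose by 0.30 (edgeR adjusted p = 0.000292) and Kcna2 fell from 419.0, 430.5 and 502.5 CPM to 336.5, 363.0 and 393.5 CPM with no overlap (-0.28, edgeR adjusted p = 2.12e-06). Kcnq3, an M-current subunit gene, fell by 0.33 on the log2 scale (edgeR adjusted p = 1.38e-06). The A-type channel genes Kcnd2 and Kcnd3 fell, by 0.21 and 0.18 on the log2 scale.

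Auxiliary subunits changed in 8 of 9 genes in Cic-L-KO cortex. Kcnip1, which binds Kv4 channels and carries a motif in 1 of its promoter windows, was at 22.8, 24.3 and 27.9 CPM in WT and at 32.8, 36.2 and 41.2 CPM in Cic-L-KO cortex, and no sample overlapped. Kcnip3, of the same family and also a calcium-binding transcriptional repressor, fell by 0.28 on the log2 scale (edgeR adjusted p = 0.000102), and Kcnip4 fell with it, as given above. Of the beta subunits, Kcnab1 rose by 0.21 and Kcnab2 and Kcnab3 fell by 0.13 and 0.22 on the log2 scale (edgeR adjusted p = 0.00175, 0.00721 and 0.01). Kcne2 had the largest fitted change, 2.35 (SE 0.906, edgeR adjusted p = 0.0418), from 0.076, 0.297 and 4.69 CPM in WT to 0.256, 6.06 and 17.2 CPM in Cic-L-KO cortex. The groups overlapped widely. Kcne2 is expressed in choroid plexus epithelium, and summed CPM of 6 choroid plexus markers ran from 21.7 to 592.1 in WT, from 9.72 to 622.6 in Cic-S-KO and from 19.0 to 1306 in Cic-L-KO cortex. Of these markers 1 of 6, Clic6, passed the test, none was at 0 in every sample, and their part in the Kcne2 result was not tested. Without the Ttr-rich libraries Kcne2 no longer passed (1.55, edgeR adjusted p = 0.0565).

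**Figure D3:**
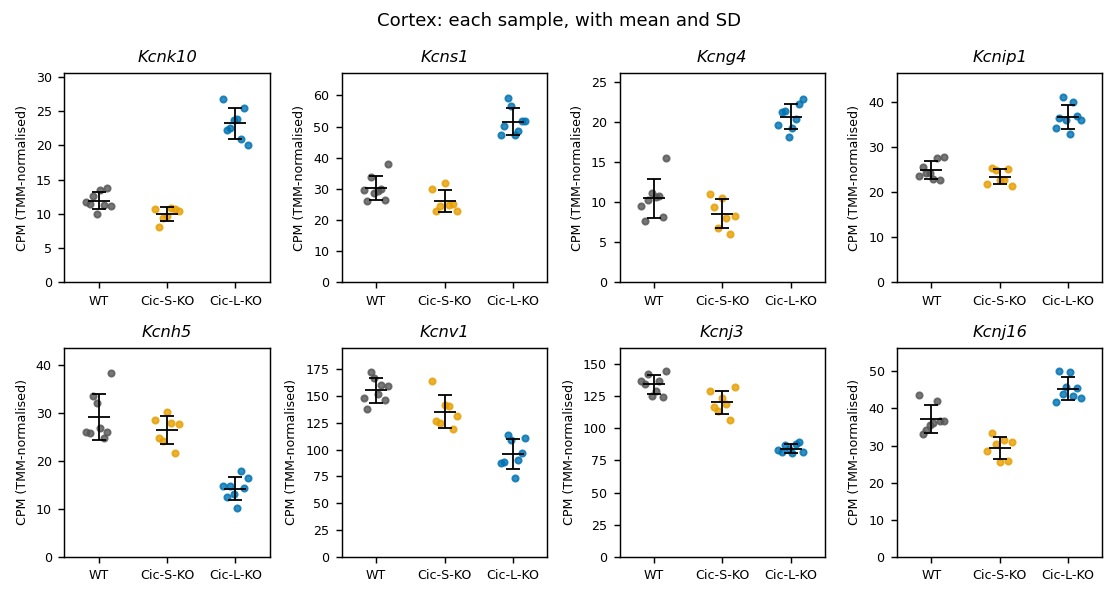
CPM of 8 members in every cortex sample by genotype, with the mean and SD as bars. All 8 Cic-L-KO points of Kcnk10, Kcns1, Kcng4 and Kcnip1 lie above the WT points and all 8 of Kcnh5, Kcnv1 and Kcnj3 below them, whereas Kcnj16 is lower in Cic-S-KO and higher in Cic-L-KO.

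Of the 10 inward rectifiers tested in Cic-L-KO cortex, 3 rose and 4 fell, and members of 1 subfamily went different ways. Kcnj3, a subunit of the G protein-gated channel that slows firing on transmitter release, was at 124.2, 135.6 and 144.9 CPM in WT and at 80.4, 83.5 and 89.6 CPM in Cic-L-KO cortex. No sample overlapped, and Kcnj3 fell by 0.67 on the log2 scale (SE 0.041, edgeR adjusted p = 4.65e-14). Its potential partner Kcnj5, scarce in cortex, rose from 0.417, 0.638 and 1.14 CPM to 1.32, 2.19 and 3.55 CPM (1.75, SE 0.300, edgeR adjusted p = 3.09e-05), also without overlap. The strong rectifiers Kcnj2 and Kcnj12 fell by 0.70 and 0.30 on the log2 scale (edgeR adjusted p = 0.000102 and 0.000791), while Kcnj14 rose by 0.42 (edgeR adjusted p = 0.0112) and Kcnj4 had a log2 fold change of -0.01 (SE 0.052). Kcnj11, the pore of the neuronal ATP-sensitive channel, fell by 0.12 on the log2 scale (edgeR adjusted p = 0.0339). Kcnj16, a pH-sensitive partner of glial channels, rose by 0.29 (edgeR adjusted p = 0.00029). Kcnj3 shares 31.1% of its exonic length with an antisense gene, and since strand use in counting is not given in the sources used here, its level could include reads of that gene.

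Among K2P channels, Kcnk10 (ENSMUSG00000033854.10, GRCm38 chromosome 12, 98429437 to 98578310, minus strand), which encodes a mechano- and lipid-sensitive leak channel, showed the largest rise. It was at 9.96, 11.6 and 13.8 CPM in WT, at 8.02, 10.4 and 10.9 CPM in Cic-S-KO and at 20.1, 23.1 and 26.8 CPM in Cic-L-KO cortex. Every Cic-L-KO sample lay above all others, and the rise against WT was 0.96 (SE 0.073, edgeR adjusted p = 6.16e-12), or 94.2%. The related Kcnk4 fell by 0.59 and Kcnk6 by 0.56 on the log2 scale (edgeR adjusted p = 0.000114 and 4.07e-05). Kcnk4 shares 13.1% of its exonic length with another gene on the same strand. For Kcnk1 and Kcnn2 the overlap, with antisense genes, is 8.01% and 8.13%. Kcnk3, an acid-sensitive leak channel, rose by 0.33 and Kcnk1 fell by 0.21 on the log2 scale (edgeR adjusted p = 4.22e-05 and 0.00105). Among calcium-activated and sodium-activated members, the small-conductance genes Kcnn2 and Kcnn3 and the sodium-activated Kcnt1 rose. Kcnn2 went from 26.5, 33.2 and 40.0 CPM to 40.5, 47.9 and 51.4 CPM (0.48, SE 0.077, edgeR adjusted p = 1.31e-05), with no overlap between the groups. Kcnn3 rose by 0.37 (edgeR adjusted p = 0.000573), and without the Ttr-rich libraries it was at 0.34 and did not pass (edgeR adjusted p = 0.0505). Kcnma1 fell from 366.5, 391.9 and 415.5 CPM to 311.2, 344.7 and 372.4 CPM (-0.19, edgeR adjusted p = 0.00134).

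Markers of cell types moved with these results. In Cic-L-KO cortex 5 of 6 pan-neuronal markers were lower, with summed levels of 4217 to 5019 CPM against 5873 to 6528 CPM in WT, and 3 of 4 markers of cortical excitatory neurons were lower (1366 to 1602 against 1806 to 2003 CPM). Inhibitory markers rose in 3 of 6 genes, Pvalb, Slc32a1 and Sst, and Vip fell, with sums of 1104 to 1277 against 949.9 to 1067 CPM. Some glial and vascular markers also moved, in a contrast where 43.2% of all genes tested passed (21.4% higher, 21.9% lower). Astrocyte markers rose in 2 of 5 genes, Aldh1l1 and Gja1 (sums of 1242 to 1659 against 1238 to 1546 CPM in WT), and microglial markers in 2 of 5, C1qa and Csf1r (284.0 to 327.7 against 252.4 to 327.2 CPM). Endothelial and mural markers rose in 2 of 4, Cldn5 and Pdgfrb (85.4 to 113.9 against 61.1 to 104.9 CPM). Of 6 oligodendrocyte markers 0 passed (4577 to 6002 against 4703 to 6545 CPM). No marker of these lists was at 0 in every sample. Their part in the channel results was not tested.

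Loss of the short isoform in cortex changed few members. In Cic-S-KO against WT cortex 6 of 72 tested members (8.33%) passed the test, 1 higher and 5 lower, against 6.53% of all genes (2.83% higher, 3.7% lower), and none reached 0.5 on the log2 scale. The clearest was Kcnj16 (ENSMUSG00000051497.15, GRCm38 chromosome 11, 110968033 to 111027968, plus strand), at 33.0, 36.3 and 43.7 CPM in WT and 25.4, 30.4 and 33.4 CPM in Cic-S-KO cortex. Of 7 Cic-S-KO samples, 6 lay below every WT sample (-0.34, SE 0.063, edgeR adjusted p = 0.00212). The only rise was in Kcnt1, from 100.4, 113.2 and 131.0 CPM in WT to 116.8, 139.9 and 149.3 CPM (0.22, edgeR adjusted p = 0.0251), and the groups overlapped. Kcnk10, Kcnk1, Kcnj3 and Kcnc2 fell by 0.26, 0.18, 0.16 and 0.14 on the log2 scale (edgeR adjusted p = 0.04, 0.0307, 0.0215 and 0.0484). Without the Ttr-rich libraries, which leaves 6 WT and 5 Cic-S-KO samples, 1 member passed, against 0.954% of all genes, and that member was Kcnj16. With genes scaled within bins of GC content 2 members passed, both lower, against 2.65% of all genes. Also 2 members passed with the replicate number as a block (against 3.69%) and 2 with only the compared genotypes fitted (against 4.03%). Summed pan-neuronal markers were 5034 to 5621 CPM in Cic-S-KO cortex, with 3 of 6 markers lower than in WT, the oligodendrocyte markers Mag and Mog were higher, and their part in these 6 results was not tested.

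The knockouts were also set against each other, which tests the difference between them without the WT samples they share. In cortex 42 of 72 members differed between Cic-S-KO and Cic-L-KO, 21 higher in each, against 33.9% of all genes (17.4% higher in Cic-S-KO, 16.5% in Cic-L-KO), and 31 without the Ttr-rich libraries, against 16.5% of all genes at that setting. Kcnk10 and Kcns1 were lower in Cic-S-KO by 1.22 and 0.98 on the log2 scale, and Kcnj3 was higher by 0.51 (edgeR adjusted p = 1e-13, 5.97e-11 and 4.43e-11). In each of these 3 genes the 7 Cic-S-KO samples did not overlap with the 8 Cic-L-KO samples. In cerebellum 16 of 72 members differed, 9 higher in Cic-S-KO and 7 higher in Cic-L-KO, against 12.4% of all genes (6.06% and 6.38%). There Kcne1l, an X-linked auxiliary subunit gene, was at 11.3, 13.3 and 14.3 CPM in Cic-S-KO and 7.30, 9.11 and 10.3 CPM in Cic-L-KO cerebellum with no overlap (0.53, SE 0.080, edgeR adjusted p = 3.96e-05). Kcnd3, the A-type channel gene mutated in a spinocerebellar ataxia, was at 161.0, 179.8 and 193.7 CPM in Cic-S-KO and 127.6, 145.1 and 171.8 CPM in Cic-L-KO cerebellum (0.28, edgeR adjusted p = 0.00136), and neither group passed against WT.

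In cerebellum Kcnk1, Kcnk3, Kcnd2, Kcnj12 and Kcnc1 fell in both knockouts against WT, and Kcna3 and Kcna6 rose in both. In Cic-S-KO cerebellum 9 of 72 tested members (12.5%) passed, 3 higher and 6 lower, against 8.23% of all 16643 genes tested (4.34% higher, 3.89% lower). In Cic-L-KO cerebellum 19 of 72 (26.4%) passed, 8 higher and 11 lower, against 21.5% (10.9% higher, 10.6% lower). Above a mean expression of 4 on the log2 CPM scale, 7 of 34 members (20.6%) passed in Cic-S-KO against 11.9% of genes, and 14 of 34 (41.2%) in Cic-L-KO against 31.1%. The median log2 fold changes of the members were 0.07 and 0.09, against 0.01 and 0.00 over all genes. The Cic-S-KO calls fell on 5 of 33 pore-forming subunits (3 higher, 2 lower), 3 of 9 K2P channels (all lower) and 1 of 10 inward rectifiers (lower), with none among 9 auxiliary and 10 calcium-activated genes in edgeR, where 2 and 3 had an unadjusted p under 0.05. DESeq2 called 1 and 0 of them. In Cic-L-KO they fell on 9 of 33 pore-forming (6 and 3), 4 of 9 auxiliary (1 and 3), 3 of 10 inward rectifier (1 and 2), 2 of 9 K2P (both lower) and 1 of 10 calcium-activated genes (lower). Summed K2P level was 693 ± 41.5 TPM in WT (n = 8), 545 ± 35.9 in Cic-S-KO (n = 7) and 620 ± 42.8 in Cic-L-KO cerebellum (n = 8).

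Kcnk1, a weakly rectifying leak channel and the most abundant K2P gene in cerebellum, was the only member to pass in all 4 brain contrasts against WT in the fits reported here. With the replicate number as a block it did not pass in Cic-S-KO cortex or Cic-L-KO cerebellum (edgeR adjusted p = 0.0688 and 0.0703), and in Cic-S-KO cortex it did not pass without the Ttr-rich libraries or with only the compared genotypes fitted (0.106 and 0.0537). It was at 204.0, 239.2 and 258.9 CPM in WT, at 166.1, 182.1 and 199.7 CPM in Cic-S-KO and at 199.6, 216.1 and 226.3 CPM in Cic-L-KO cerebellum. All 7 Cic-S-KO samples lay below the WT range (-0.36, SE 0.047, edgeR adjusted p = 4.55e-05), and in Cic-L-KO 1 of 8 did (-0.13, edgeR adjusted p = 0.0404). Kcnk3 fell by 0.37 in Cic-S-KO and by 0.28 in Cic-L-KO cerebellum on the log2 scale (edgeR adjusted p = 0.00664 and 0.0114), and Kcnk9, its close relative, fell by 0.26 in Cic-S-KO (edgeR adjusted p = 0.0154). Over the edgeR and DESeq2 settings the adjusted p of Kcnk9 reached 0.0576. Kcnd2 (ENSMUSG00000060882.5, GRCm38 chromosome 6, 21215503 to 21729805, plus strand), the A-type channel gene of granule cells, was at 318.4, 346.3 and 410.3 CPM in WT, 203.4, 255.8 and 299.0 CPM in Cic-S-KO and 239.1, 287.9 and 332.6 CPM in Cic-L-KO cerebellum. Cic-S-KO did not overlap with WT (-0.45, SE 0.080, edgeR adjusted p = 0.00172), and in Cic-L-KO 7 of 8 samples lay below every WT sample (-0.31, edgeR adjusted p = 0.006). Kcnj12, a strong inward rectifier, was at 86.2, 101.0 and 111.7 CPM in WT, 54.5, 72.5 and 83.7 CPM in Cic-S-KO and 57.5, 82.0 and 84.2 CPM in Cic-L-KO cerebellum. Neither knockout overlapped with WT for Kcnj12 (-0.48 and -0.40, edgeR adjusted p = 0.0023 and 0.0021). The 2 contrasts share their WT samples, so these pairs of values are not independent of each other.

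**Figure D4:**
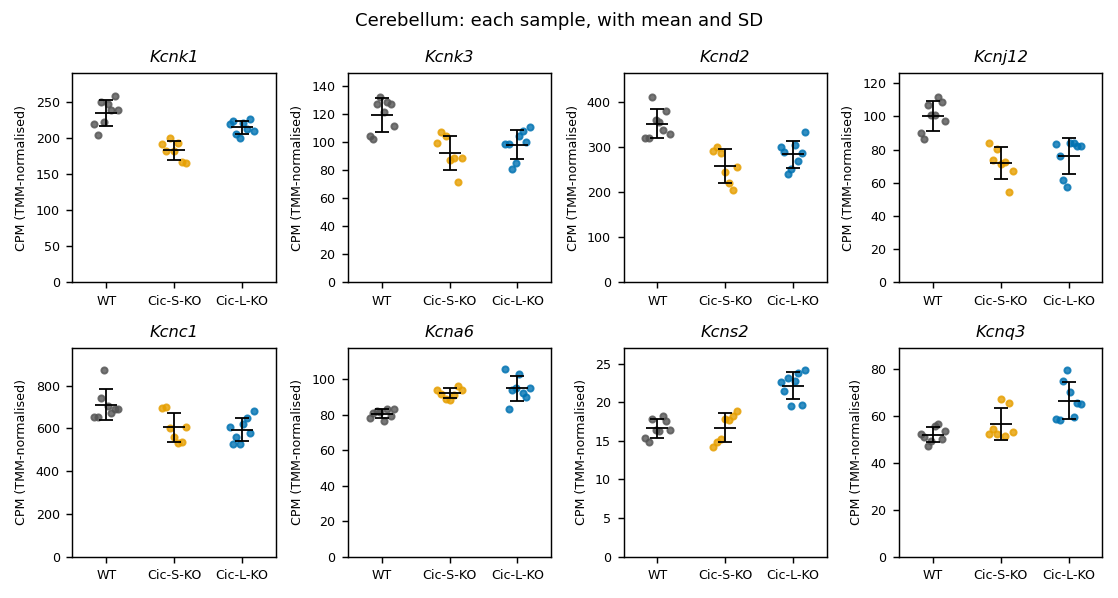
CPM of 8 members in every cerebellum sample by genotype, with the mean and SD as bars. Kcnk1, Kcnk3, Kcnd2, Kcnj12 and Kcnc1 are lower in both knockouts than in WT, Kcna6 is higher in both, and Kcns2 and Kcnq3 are higher in Cic-L-KO.

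Kv3 and M-current genes also passed in cerebellum. Kcnc1 was at 651.8, 691.1 and 871.3 CPM in WT, 530.7, 599.5 and 699.8 CPM in Cic-S-KO and 526.5, 594.2 and 681.9 CPM in Cic-L-KO, with overlap in both (-0.23 and -0.26, edgeR adjusted p = 0.0363 and 0.00706). Kcnq3 rose in Cic-L-KO from 47.1, 51.8 and 56.4 CPM to 58.3, 65.4 and 79.4 CPM (0.35, edgeR adjusted p = 0.000464). The groups did not overlap. Kcna3 and Kcna6, Kv1 genes, rose in both knockouts, by 0.40 and 0.19 in Cic-S-KO and by 0.25 and 0.23 in Cic-L-KO (edgeR adjusted p = 0.0066, 0.00366, 0.035 and 8.09e-05). Kcna6 shares 39.6% of its exonic length with another gene. Kcnn2 and Kcnma1 did not pass in either knockout, and neither did Kcna1 or Kcna2. Kcnf1, a cortical silent subunit, was low in cerebellum and rose in Cic-L-KO from 1.15, 1.72 and 2.58 CPM to 2.00, 2.52 and 5.16 CPM (0.73, edgeR adjusted p = 0.0214). Its adjusted p reached 0.0566 over the edgeR and DESeq2 settings.

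Cell type markers moved beside the cerebellar results. Pan-neuronal markers were lower in 4 of 6 genes in Cic-S-KO and 3 of 6 in Cic-L-KO, with sums of 4451 to 5062 CPM in WT, 3669 to 4439 in Cic-S-KO and 4047 to 4495 in Cic-L-KO. Astrocyte markers were higher in 2 of 5 genes in Cic-S-KO (Aldh1l1 and Slc1a3). In Cic-L-KO Gja1 was higher and Aldh1l1 and Aqp4 were lower, and the astrocyte sums were 2447 to 3053 CPM in WT, 2636 to 3163 in Cic-S-KO and 2432 to 2918 in Cic-L-KO. Summed granule cell markers were 3826 to 4769 CPM in WT, 2621 to 4151 in Cic-S-KO (3 of 5 lower) and 2960 to 4115 in Cic-L-KO (2 of 5 lower). Inhibitory markers were higher in 4 of 5 tested genes in both knockouts, with sums of 1520 to 1849 CPM in WT, 1866 to 2291 in Cic-S-KO and 1909 to 2264 in Cic-L-KO. Purkinje cell markers passed in 1 of 5 genes in Cic-S-KO and 0 of 5 in Cic-L-KO in edgeR's test (1 at an unadjusted p under 0.05, 0 with DESeq2), and endothelial and mural markers were higher in 4 of 4 in Cic-L-KO. No marker was at 0 in every sample, and their part in the channel results was not tested.

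The 46 brain samples were also fitted jointly, to test the cortex log2 fold change of each knockout minus its cerebellar one. For Cic-L-KO 27 of 74 members (36.5%) passed, 14 with the greater value in cortex and 13 with the greater value in cerebellum, against 23.0% of all 18032 genes (11.5% each way). For Cic-S-KO 9 of 74 (12.2%) passed, 4 and 5, against 4.5% (2.01% and 2.5%), and with GC scaling 7 passed, 2 and 5. The share of all genes with GC scaling is not given here for this interaction. By class the Cic-L-KO calls took 13 of 35 pore-forming, 5 of 9 K2P, 4 of 10 calcium-activated, 3 of 9 auxiliary and 2 of 10 inward rectifier genes. Of 15 members that passed in both regions of Cic-L-KO, 8 moved the same way and 7 opposite ways. The same split was not counted over all genes, so it cannot be called particular to these members.

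**Figure D5:**
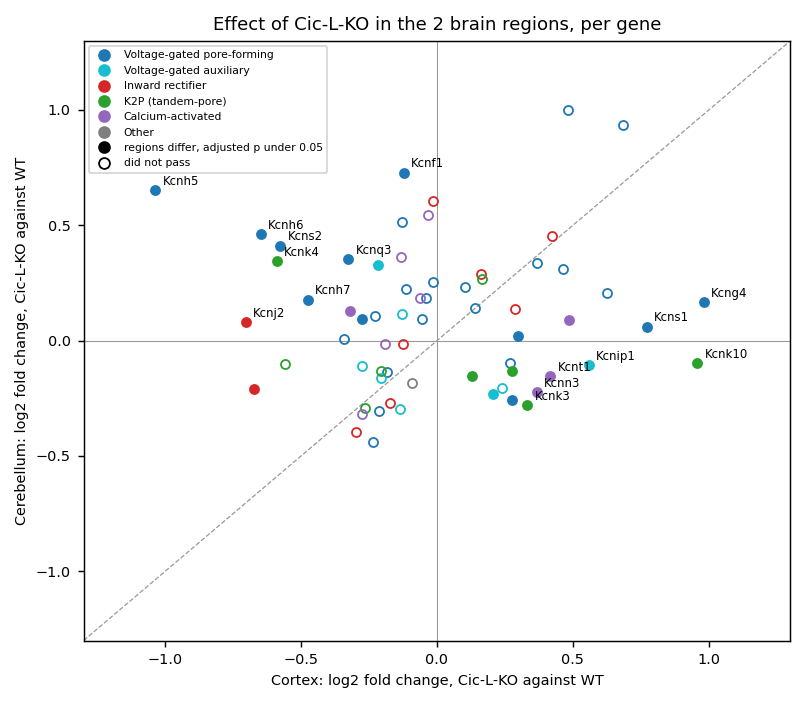
Log2 fold change of Cic-L-KO against WT in cortex (horizontal) and cerebellum (vertical) for 65 members tested in both regions, coloured by channel class, with filled points where the regions differed at an adjusted p under 0.05 in edgeR and a dashed line of equal change. Kcne2 and Kcnj5 lie outside the axes and are not drawn, and Kcnk10, at 0.96 in cortex and -0.10 in cerebellum, and Kcns2, at -0.58 and 0.41, stand far from the line.

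Kcns2 showed the clearest opposition under long isoform loss. It fell in cortex, as given above, and rose in cerebellum from 14.9, 16.4 and 18.3 CPM in WT to 19.5, 22.7 and 24.1 CPM in Cic-L-KO with no overlap (0.41, SE 0.065, edgeR adjusted p = 5.57e-05), an interaction of -0.99 (SE 0.098, edgeR adjusted p = 7.27e-11). Kcnq3 had the same pattern (interaction -0.68, edgeR adjusted p = 2.67e-08), and Kcnc1 and Kcnk3 the reverse, higher in cortex and lower in cerebellum (0.53 and 0.61, edgeR adjusted p = 9.06e-07 and 1.31e-05). Kcnk10 and Kcnip1 rose in cortex and had cerebellar log2 fold changes of -0.10 (SE 0.097) and -0.11 (SE 0.048), with interactions of 1.06 and 0.67 (edgeR adjusted p = 1.14e-08 and 1.59e-09). Kcnn3, which rose in cortex, fell in cerebellum by 0.22 on the log2 scale, and Kcnab1 did likewise by 0.23 (edgeR adjusted p = 0.0357 and 0.000506). For Kcnn3 in cerebellum the adjusted p reached 0.0585 over the edgeR and DESeq2 settings. Under short isoform loss the leading interactions were Kcnj16 at -0.50, Kcnd2 at 0.46 and Kcns1 at -0.63 (edgeR adjusted p = 0.00239, 0.00306 and 0.0045). Kcns1 was at 2.80, 3.67 and 4.42 CPM in WT and 3.33, 5.05 and 6.05 CPM in Cic-S-KO cerebellum, where 6 of 7 samples exceeded every WT sample. For this low-level gene the adjusted p of that contrast ran from 0.00827 to 0.0883 over the edgeR and DESeq2 settings, so it did not pass in all.

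Partners of potassium channels and other cation channels were described from lists. Of 22 partner genes tested, 6 rose and 7 fell in Cic-L-KO cortex, 2 and 2 in Cic-S-KO cortex, 5 and 4 in Cic-L-KO cerebellum, and 1 and 1 in Cic-S-KO cerebellum. The shares of all genes called in these contrasts were 43.2%, 6.53%, 21.5% and 8.23%. Lgi1, an epilepsy gene whose secreted product acts on Kv1 channels at terminals, fell in all 4. In cortex it was at 115.4, 119.5 and 126.9 CPM in WT, 104.8, 107.8 and 116.7 CPM in Cic-S-KO and 71.9, 75.4 and 81.2 CPM in Cic-L-KO. Cic-L-KO did not overlap with WT (-0.66, SE 0.034, edgeR adjusted p = 9.93e-16), while Cic-S-KO did (-0.14, edgeR adjusted p = 0.0187). Of 23 sodium and calcium channel genes tested, 5 rose and 11 fell in Cic-L-KO cortex, 2 and 1 in Cic-S-KO cortex, 2 and 6 in Cic-L-KO cerebellum, and 3 and 4 in Cic-S-KO cerebellum, to be read against the same shares of all genes. The sodium channel gene Scn2a fell in Cic-L-KO cortex by 0.28 and in Cic-S-KO and Cic-L-KO cerebellum by 0.33 and 0.42 on the log2 scale (edgeR adjusted p = 1.47e-07, 0.0362 and 0.00219). The T-type calcium channel gene Cacna1g rose by 0.54 in Cic-L-KO cortex (edgeR adjusted p = 8.79e-07).

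In P6 lung 55 members passed the filter on low counts and 30 did not. In Cic-S-KO 7 of 55 members (12.7%) passed the test, 3 higher and 4 lower, against 15.7% of all 16695 genes (9.99% higher, 5.73% lower). In Cic-L-KO lung 2 of 55 (3.64%) passed, both higher, against 4.89% (2.62% higher, 2.28% lower). Between the knockouts 15 differed, 9 higher in Cic-S-KO and 6 higher in Cic-L-KO, against 12.2% (7.31% and 4.85%). Kcnc4, a fast-inactivating Kv3 channel gene with 114.1 to 128.9 CPM in WT cortex, was barely detected in WT lung, at 0, 0.073 and 0.196 CPM, from 0 to 5 counts a library. In Cic-S-KO lung it was at 0.537, 1.13 and 2.33 CPM, from 14 to 84 counts, and in Cic-L-KO lung at 0.102, 0.333 and 0.557 CPM, from 2 to 13 counts. All 8 Cic-S-KO libraries lay above WT (4.01, SE 0.419, edgeR adjusted p = 2.18e-06) and 5 of 8 Cic-L-KO libraries did (1.98, SE 0.485, edgeR adjusted p = 0.0165), and with WT counts this low the size of either fold is uncertain. The highest Kcnc4 value was in Cic-S-KO replicate 5, the library with neuronal transcripts, and without it 7, 2 and 14 members passed in the 3 lung contrasts. The shares of all genes without that library are not given here. In cortex and cerebellum Kcnc4 did not pass in either knockout.

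Kcnab2 rose in Cic-S-KO lung from 6.94, 9.29 and 12.4 CPM to 12.2, 13.8 and 18.8 CPM, where 7 of 8 samples exceeded every WT sample (0.60, edgeR adjusted p = 0.00119). Kcne2, the leading member in WT lung, fell from 23.1, 46.9 and 74.5 CPM to 17.1, 23.7 and 37.6 CPM, and the groups overlapped (-0.86, edgeR adjusted p = 0.00901). Kcnj8, the pore of the vascular ATP-sensitive channel, rose in Cic-L-KO lung from 12.7, 15.6 and 21.6 CPM to 18.4, 23.1 and 29.3 CPM, with 6 of 8 samples above WT (0.52, edgeR adjusted p = 0.0288). Across the edgeR and DESeq2 settings the adjusted p of Kcnj8 ran from 0.0042 to 0.091, so it did not pass in all. The gene of its regulatory subunit, Abcc9, rose in Cic-L-KO lung by 0.47, in cortex by 0.37 and in cerebellum by 0.37 (edgeR adjusted p = 0.00311, 0.00451 and 0.00712). In Cic-S-KO lung Abcc9 went the other way and was called lower than in WT and than in Cic-L-KO lung. Kcnj8 itself did not pass in either brain region, with log2 fold changes of 0.16 (SE 0.123) in cortex and 0.29 (SE 0.127) in cerebellum.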

How the data were processed

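Total RNA from frozen mouse lung, cortex and cerebellum was sequenced as poly(A)-selected Illumina libraries, per the labels' protocols. The authors deposited 1 table of raw read counts per gene for all 70 samples, with 0 columns of other samples. The submitters' processing notes name STAR 2.7 and GRCm38.p6; the counting program, annotation and use of strand are not given in the sources used here. Of 50789 identifiers, 50725 matched GENCODE M21 without the version. All genes were fitted in R 4.3.3 with edgeR 4.0.16 (filterByExpr, TMM, robust quasi-likelihood fit, Benjamini-Hochberg), 3 genotypes per tissue sharing the spread; the region interaction used both brain regions. A call is an adjusted p under 0.05. SEs were derived from the F statistic. CPM is TMM-normalised and TPM uses union exon length. DESeq2 1.42.0 served as an alternative, and the other alternatives used edgeR, with limma 3.58.1 loaded beside it but not used for a test.

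Of 94 annotated protein-coding Kcn genes, 9 on chromosome 1 are not analysed here. Members, lists and tests were chosen with earlier results of these data known. Genes were named by rule: 10 analysed of 11 always listed, the 3 largest called changes per class and brain contrast (mean log2 CPM of at least 0), the 3 smallest p per lung, interaction and between-knockout contrast, and the 2 highest WT levels per class and region. The other named members, such as Kcnv1, Kcna6, Kcns3 and Kcnh3, and the choroid plexus list were chosen after their values were seen. Separate litters are not stated, so p-values measure the spread between these samples. All 238 library pairs within groups differed beyond sampling noise (lowest chi-square per degree of freedom 4.17). The fits were tested on simulated data, in which fewer genes changed, and by more, than in Cic-L-KO cortex. That test does not cover small or widespread changes. Alternatives were RLE scaling, DESeq2, other low-count filters, a replicate block, GC bins, a Y-linked covariate, only the compared genotypes, and the libraries left out. Some genes are counted in the totals but not reported here by name or drawn in the figures.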

Additional observations from a re-analysis of the deposited data

Results flagged for a closer look

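Among 129 sets of values, each 1 named member in 1 group, 7 held a sample that stood far from the rest of its group, close to the 6.45 that a rate of 1 in 20 gives. Kcnab3 was at 37.4 CPM in Cic-S-KO cerebellum replicate 6, above the others of its group. Kcne2 was at 5.19 CPM in Cic-S-KO cortex replicate 6 and at 17.2 CPM in Cic-L-KO cortex replicate 5. Kcng4 was at 15.5 CPM in WT cortex replicate 8, still below every Cic-L-KO sample. Kcnk4 was at 23.7 CPM in Cic-S-KO cortex replicate 4. The lowest values apart from their groups were Kcnk9 at 92.2 CPM in WT cerebellum replicate 3 and Kcns2 at 32.9 CPM in WT cortex replicate 6.

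Among the members whose knockout effect differed between cortex and cerebellum by the interaction test, 9 for Cic-S-KO and 27 for Cic-L-KO, the 3 with the smallest p in each are given. Under short isoform loss the cortex minus cerebellum difference of log2 fold changes was -0.50 for Kcnj16, 0.46 for Kcnd2 and -0.63 for Kcns1. Under long isoform loss it was -0.99 for Kcns2, 0.67 for Kcnip1 and 1.06 for Kcnk10.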

How the results depend on the processing

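No count of members reversed, and of the gene-by-setting values for 56 named results, 430 kept their direction and side of the threshold, 36 kept their direction but no longer passed, and 0 reversed. The count in Cic-S-KO cortex, 6 members, depended most on the setting: it was 10 with DESeq2, 2 with GC bins, 2 with only the compared genotypes and 1 without the Ttr-rich libraries. The count in Cic-L-KO cortex, 49, was 30 without those libraries, which leaves 3 Cic-L-KO samples. In Cic-L-KO lung, 2 members became 1 with no low-count filter, 1 with a mean of at least 50 counts and 1 with only the compared genotypes. The Cic-S-KO interaction count, 9, was 3 with no low-count filter. The cause of these shifts was not tested. Shares of all genes are given above for some of the cortex counts only, so a shift cannot be called particular to the members. Members at a few counts, such as Kcnc4 in lung, are limited by depth.

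Replicate numbers are shared between groups, but the labels do not say that they pair samples, and in no contrast did every same-numbered pair correlate above 0.1. In Cic-S-KO cortex and cerebellum, replicates 2 to 7 have library names numbered 3 to 8, whereas in the other groups the numbers are equal. A pairing of Cic-S-KO brain samples with the other genotypes by library number was therefore not tested, here or by the block below. Some samples correlated best with their own number, with 3 of 8 between WT cortex and cerebellum and 6 of 7 in Cic-S-KO as examples. In lung the number was 6 of 8 for WT with Cic-L-KO and 4 of 8 for WT with Cic-S-KO. In cerebellum it was 0 of 8 for WT with Cic-L-KO. These counts were not set against a random pairing, so they do not show that the samples are unpaired. With the replicate number as a block, the count was 2 and 49 in Cic-S-KO and Cic-L-KO cortex, 7 and 14 in Cic-S-KO and Cic-L-KO cerebellum, 9 and 4 in Cic-S-KO and Cic-L-KO lung, 7 and 29 for the interactions and 64 between WT regions. Apart from Cic-S-KO cortex, given above, the shares of all genes with this block are not given here. A shift in these counts therefore cannot be called particular to the members.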
